A study of Rattus norvegicus with 6 samples.

Results

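The transcripts described here encode the AP-1 and Egr immediate early factors, namely the Fos family (Fos, Fosb, Fosl1, Fosl2), the Jun family (Jun, Junb, Jund), Egr1, Egr2 and Atf3. They were taken by gene symbol from the table of counts, in which 9 of the 10 had a row among 14475 genes. Junb was not analysed here. The cells were vascular smooth muscle (VSM) cells grown from the artery feeding the soleus muscle (SFA) of male Fischer 344 rats. Libraries of polyadenylated RNA came from 3 young cultures (rats of 4 months) and 3 old cultures (rats of 24 months). The cells carried no transgene and received no treatment named in the labels, and all values describe cells after growth in culture, not cells in the artery.

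AP-1 is a dimer of a Fos protein with a Jun protein, or of Jun proteins with one another, that binds a short DNA element and turns growth factor and stretch signals into transcription. Immediate early genes are induced without new protein synthesis, commonly through serum response factor (SRF) with ternary complex factors and through MAP kinases, and several of their transcripts are made and degraded within a short time of a stimulus. In VSM cells these factors are known for their response to injury, mitogens and mechanical load. Fosl1 and Fosl2 are typically induced later than Fos, and Jund is largely constitutive.

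RefSeq promoter windows of 300 bases (250 before to 50 after the start of the gene, build GRCr8) were matched by symbol for 7 of the 10 members. Those of Egr1 and Egr2 are shown because these transcripts followed each other over the libraries, and that of Jund because it did not share their pattern. Capitals mark CArG boxes (the SRF element), the cAMP response element TGACGTCA, its shorter form TGACG (or CGTCA on the other strand) and the Egr sites GCGGGGGCG or GCGTGGGCG, searched on both strands; the short form lies within the full element.
Egr1 (chr18:26736828-26737127, plus strand): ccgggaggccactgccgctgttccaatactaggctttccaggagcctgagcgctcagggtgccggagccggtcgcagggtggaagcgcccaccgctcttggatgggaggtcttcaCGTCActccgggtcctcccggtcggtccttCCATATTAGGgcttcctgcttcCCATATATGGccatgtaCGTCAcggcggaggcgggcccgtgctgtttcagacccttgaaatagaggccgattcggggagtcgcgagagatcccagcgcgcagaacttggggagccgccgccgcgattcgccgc
Egr2 (chr20:21054392-21054691, minus strand): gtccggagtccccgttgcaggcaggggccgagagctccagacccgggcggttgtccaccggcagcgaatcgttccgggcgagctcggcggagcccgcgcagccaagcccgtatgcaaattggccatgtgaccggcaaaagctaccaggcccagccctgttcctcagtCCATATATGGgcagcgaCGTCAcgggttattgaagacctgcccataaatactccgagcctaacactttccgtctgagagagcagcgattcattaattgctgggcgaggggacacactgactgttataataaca
Jund (chr16:18769722-18770021, minus strand): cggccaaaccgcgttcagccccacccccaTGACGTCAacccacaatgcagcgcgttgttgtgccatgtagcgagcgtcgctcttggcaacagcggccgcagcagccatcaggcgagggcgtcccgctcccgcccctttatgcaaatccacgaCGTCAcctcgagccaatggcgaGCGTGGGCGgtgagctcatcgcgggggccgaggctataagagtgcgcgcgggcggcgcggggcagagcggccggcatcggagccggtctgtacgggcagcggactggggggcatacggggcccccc
The Egr1 window held CArG boxes at -105 and -83 from the start and the Egr2 window held 1 at -83, an element found in 1.64% of 33469 windows. Both had the short form at -66, and Egr1 had another at -135; 21.2% of all windows held one. The Jund window held the full element at -221 (1.83% of all windows), a further short form at -98 and an Egr site at -76 (3.2%). The Fosl2 window held an Egr site at -249 and the Fosl1 window short forms at -148 and -84. The AP-1 element TGACTCA, present in 4.63% of windows, was in no member's window. These patterns were kept after matches of further patterns had been seen, and a match is a description of letters, not of a bound site. Fos, Jun and Atf3 are named only.

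The total of counts on genes ranged from 44235674 to 59700887 per library, and values are given as CPM, counts scaled to a common library size after TMM normalization. The labelled cell type was checked with its markers. The 7 VSM markers summed to between 11206 and 20992 CPM in young and between 3445 and 5560 CPM in old libraries. Each was lower in all 3 old libraries than in any young library, beside 14.7% of all genes. The 7 fibroblast markers summed to between 261 and 729 CPM in young and between 1171 and 2151 CPM in old. Of the 7, 3 were higher in all old libraries than in any young library, beside 14.5% of all genes, and in 4 the groups overlapped. DESeq2 called 2 of these 7 markers (Dcn and Col14a1) as higher, beside 2.23% of all genes. Of 9 skeletal muscle markers 5 had a row, with sums between 175 and 393 CPM in young and between 38.6 and 66.9 CPM in old. DESeq2 called 3 of them (Acta1, Myh1 and Myh2) as lower, beside 3.25% of all genes. Tnnt3 went the other way, with a log2 fold change of 0.92 (edgeR adjusted p = 0.216), and Des had -0.11, so the list did not fall as a whole. Of the endothelial, macrophage and Schwann cell markers, 5 of 9, 3 of 8 and 3 of 6 had a row, and their sums overlapped between the ages, at 10.9 to 20.0, 5.13 to 16.8 and 12.5 to 85.4 CPM over the 6 libraries. The part of these marker differences in the results below was not tested, and in bulk RNA fewer cells of a type and less RNA per cell cannot be told apart.

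None of the 9 members passed the thresholds between old and young VSM cells. In edgeR's quasi-likelihood test (adjusted p under 0.05 over all genes with a log2 fold change at or beyond 1 in either direction) 0 of 9 were called, beside 0.00691% of all genes. limma-voom called 0 of 9 members and 0 of all 14475 genes. DESeq2 also called 0 members, where it called 2.23% of all genes as higher and 3.25% as lower in old. At an unadjusted p under 0.05 edgeR gave 2 of 9, Fosl2 and Jund, beside 22.6% of all genes. The log2 fold change was positive for 5 members and negative for 4, with a median of 0.07 beside 0.02 over all genes, and edgeR's adjusted p ran from 0.111 to 0.976.

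**Figure D1:**
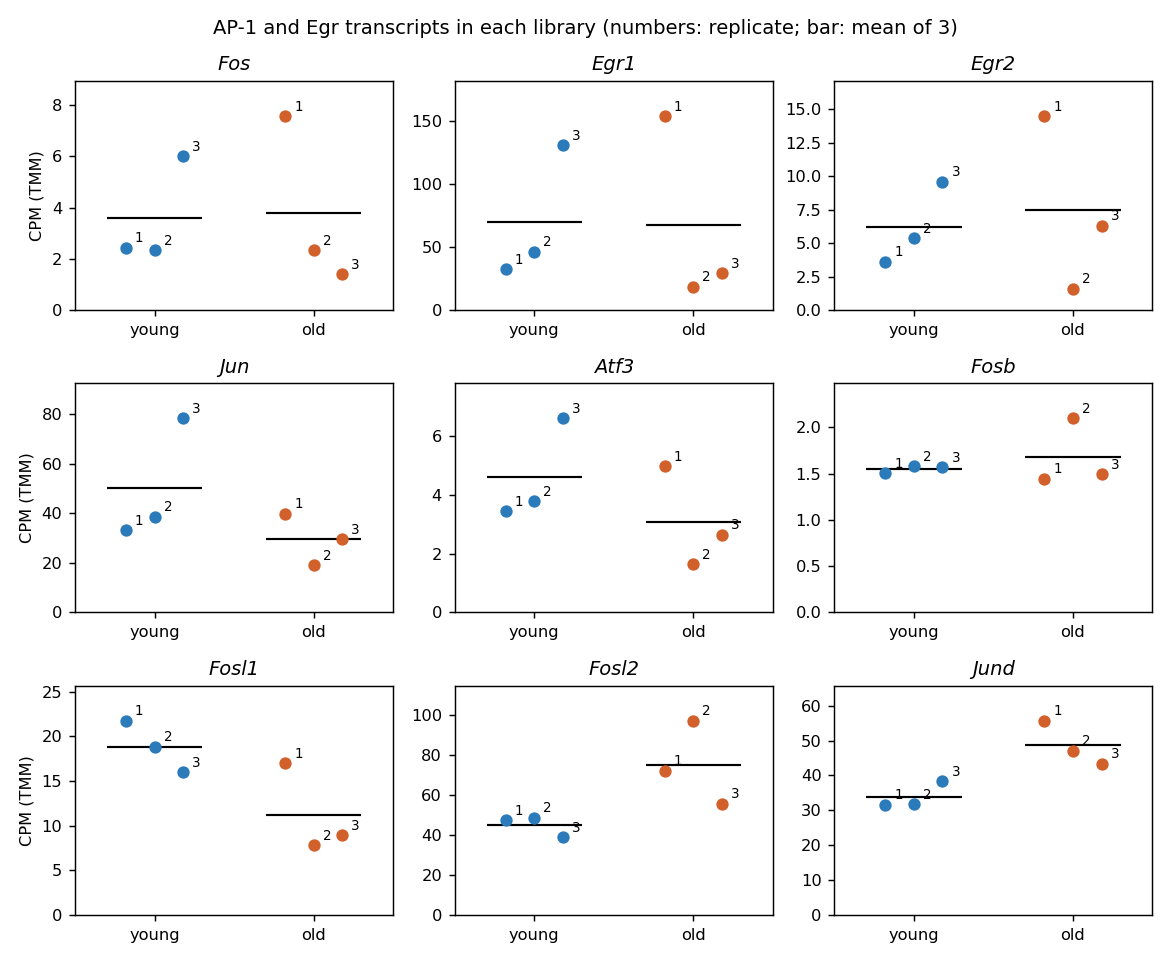
CPM after TMM scaling (y axis, linear from 0) of each of the 9 members in the 3 young (blue) and 3 old (orange) libraries, numbered by replicate, with a bar at the mean of 3. Young replicate 3 and old replicate 1 are the 2 highest libraries for Fos, Egr1, Egr2, Jun and Atf3, while Fosl2 and Jund are higher in every old library.

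Among the Fos family, Fos (ENSRNOG00000008015), the partner of Jun in the classical AP-1 dimer, had 2.44, 2.34 and 6.00 CPM in young replicates 1, 2 and 3 and 7.58, 2.33 and 1.40 CPM in old replicates 1, 2 and 3. One library of each age was well above the others, and the groups overlapped. Between the groups, Fos differed by a log2 fold change of 0.07 ± 0.70 (SE, edgeR adjusted p = 0.963). Fosb (ENSRNOG00000046667) was low, with 68 to 109 counts per library, with means of 1.55 ± 0.0391 in young and 1.68 ± 0.363 CPM in old (SD, n = 3 each). For Fosb the fold change was 0.11 on the log2 scale, ± 0.25 (SE, edgeR adjusted p = 0.802).

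Fosl1 (ENSRNOG00000020552), which encodes Fra-1, had 21.7, 18.8 and 16.0 CPM in young and 17.0, 7.79 and 8.90 CPM in old. Old replicate 1 lay within the young range and the other old libraries lay below it. Fosl1 had a log2 fold change of -0.75 ± 0.31 (SE, edgeR adjusted p = 0.224, DESeq2 adjusted p = 0.127). Without old replicate 1 Fosl1 was the only member called by edgeR, with a log2 fold change of -1.17 ± 0.17 (SE, edgeR adjusted p = 0.0294), but 5.06% of all genes were then called. With young replicate 3 left out as well, a setting chosen after the data had been seen, its log2 fold change was -1.28 (edgeR adjusted p = 0.0574).

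Fosl2 (ENSRNOG00000068412), which encodes Fra-2, had 47.6, 48.8 and 38.9 CPM in young and 72.3, 97.2 and 55.7 CPM in old. Every old library lay above every young library. With all libraries its log2 fold change was 0.74 ± 0.21 (SE), with an unadjusted p of 0.0126 and an adjusted p of 0.135 from edgeR. DESeq2 gave Fosl2 an adjusted p of 0.0289, and its fold change was under the threshold of 1 on the log2 scale.

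Of the Jun family, Jun (ENSRNOG00000026293), which dimerizes with itself or a Fos protein, had 33.2, 38.7 and 78.4 CPM in young and 39.9, 19.2 and 29.6 CPM in old. The highest value was that of young replicate 3, old replicate 1 was the second highest, and the groups overlapped. Jun had a log2 fold change of -0.76 ± 0.40 (SE, edgeR adjusted p = 0.301) and -0.28 without young replicate 3.

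Jund (ENSRNOG00000019568), a Jun protein that is often expressed in resting cells, had 31.6, 31.8 and 38.3 CPM in young and 55.7, 47.1 and 43.4 CPM in old. As for Fosl2, the groups did not overlap. Its log2 fold change was 0.52 ± 0.13 (SE), with an unadjusted p of 0.00673 and an adjusted p of 0.111 from edgeR and 0.0231 from DESeq2. At an adjusted p under 0.05 with no limit on the fold, DESeq2 gave 2 of 9 members, Fosl2 and Jund, beside 12.2% of all genes. In the same 2 members all old libraries were above all young libraries (14.5% of all genes), and in 0 members were they all below (14.7%).

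Egr1 (ENSRNOG00000019422), a zinc finger factor, had 32.3, 46.4 and 131.0 CPM in young and 154, 18.4 and 29.1 CPM in old. The range within old spanned 8.36-fold and that within young 4.06-fold, while the group means were 69.9 ± 53.4 and 67.2 ± 75.5 CPM (SD, n = 3 each). The log2 fold change was -0.06 ± 0.90 (SE, edgeR adjusted p = 0.976). It was -1.56 without old replicate 1 and 0.77 without young replicate 3, so its sign depended on the library left out. Egr2 (ENSRNOG00000000640), a close relative of Egr1, had 3.61, 5.35 and 9.59 CPM in young and 14.5, 1.58 and 6.31 CPM in old. Its log2 fold change was 0.27 ± 0.76 (SE, edgeR adjusted p = 0.850).

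Atf3 (ENSRNOG00000003745), a stress-induced factor that dimerizes with Jun proteins, had 3.46, 3.79 and 6.62 CPM in young and 4.99, 1.64 and 2.65 CPM in old. Young replicate 3 and old replicate 1 were again highest, and the groups overlapped. Atf3 had a log2 fold change of -0.58 ± 0.46 (SE, edgeR adjusted p = 0.475) and -1.11 without old replicate 1.

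**Figure D2:**
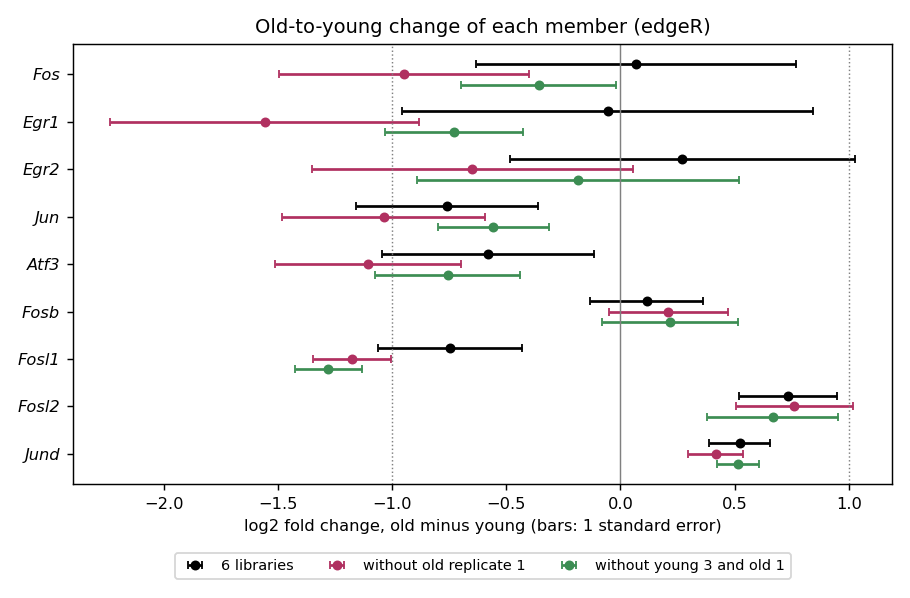
Log2 fold change of each member (x axis, old minus young, bars of 1 standard error, edgeR) with 6 libraries (black), without old replicate 1 (red) and without young replicate 3 and old replicate 1 (green); dotted lines mark -1 and 1. Fosl1, Jun, Atf3 and Egr1 lie below 0 and Fosl2, Jund and Fosb above 0 in all 3 fits, while Fos and Egr2 cross 0. With 6 libraries Egr1 (-0.06) and Fosb (0.11) lie within 1 standard error of 0.

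The members differed most in their spread between libraries of the same age. The pooled within-group SD of log2 CPM was 1.36 for Egr1, 1.24 for Egr2 and 1.03 for Fos, at the 98.5, 98.1 and 96.7 percentiles of the 12257 genes with a mean of at least 1 CPM, whose median was 0.196. Atf3 and Jun followed at 0.665 and 0.60. Fosl1 and Fosl2 had 0.453 and 0.312, and Fosb and Jund, with 0.207 and 0.171, were close to the median. In 5 of 9 members (Fos, Jun, Egr1, Egr2 and Atf3) young replicate 3 and old replicate 1 were the 2 highest libraries, beside 6.52% of all genes. For Jun the margin was narrow, with 39.9 CPM in old replicate 1 and 38.7 CPM in young replicate 2. The pair of young replicate 3 and old replicate 1 was singled out after the values had been seen. Growth conditions and time of harvest of single cultures are not given in the labels, and their part in this pattern was not tested.

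**Figure D3:**
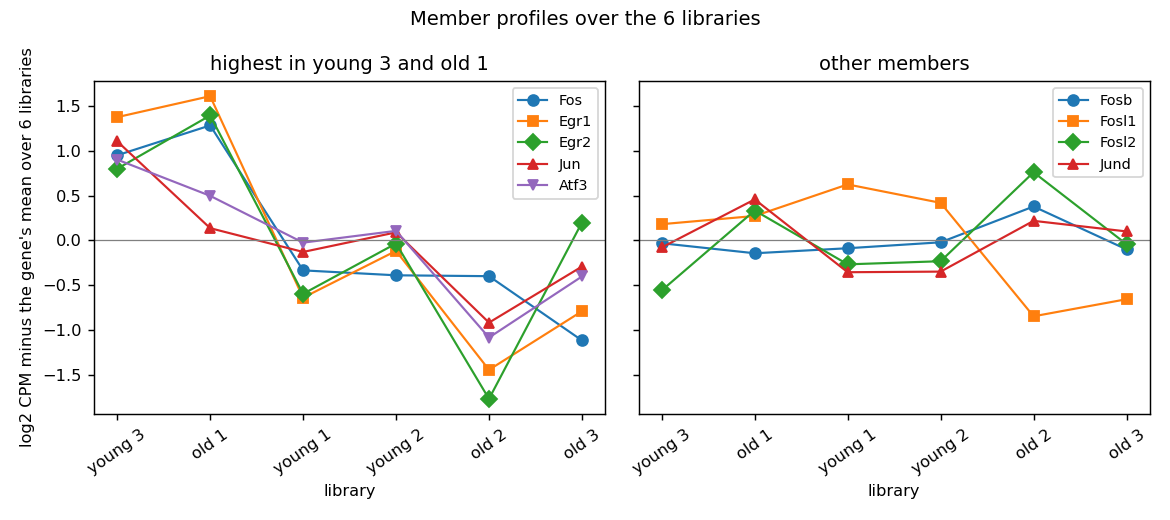
Log2 CPM of each member minus its mean over the 6 libraries (y axis), by library (x axis, with young replicate 3 and old replicate 1 first), for the 5 members highest in those 2 libraries (left) and the other 4 (right). Egr1 ranges from -1.45 to 1.61 and Jund from -0.35 to 0.46.

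The genes whose centred log2 CPM was nearest to a member's over the 6 libraries were listed as a description. For Egr1 they were Zfp385d, Ndnf and Egr2, with root-mean-square differences of 0.236, 0.468 and 0.497. For Fos they were Mcf2l, Zcchc18 and Elovl6 (0.358, 0.361 and 0.413). For Jun they were Prkar2b, Septin11 and Itgb1 (0.148, 0.165 and 0.165).

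Ratios of counts between paralogs in the same library do not depend on the scaling of the library, although they are not corrected for gene length. Of 3 ratios computed after the values had been seen, Fosl2/Fosl1 was 2.19, 2.59 and 2.44 in young and 4.25, 12.5 and 6.25 in old. Jund/Jun was 0.953, 0.822 and 0.489 in young and 1.39, 2.46 and 1.46 in old. Both ratios were higher in every old library, with log2 differences of 1.53 and 1.24. The two-sided exact permutation p was 0.1 for each, the smallest that 3 libraries against 3 can give, and 0.15 after adjustment over the 3 ratios. Egr1/Egr2 was 8.94, 8.67 and 13.7 in young and 10.6, 11.7 and 4.61 in old, a log2 difference of -0.30 (exact permutation p = 0.8). The ratios were chosen for these values and the separation is a description.

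**Figure D4:**
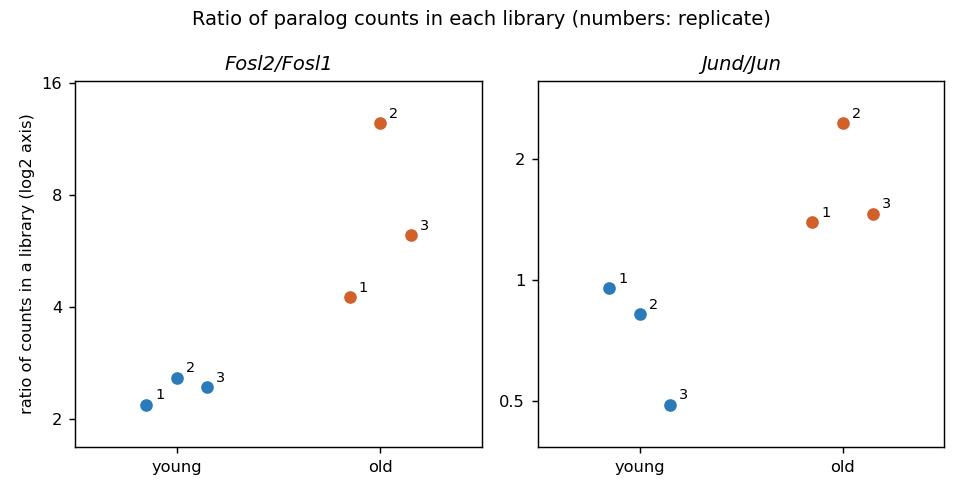
Ratio of counts in each library (y axis, log2 scale) of Fosl2 to Fosl1 (left) and of Jund to Jun (right) in young (blue) and old (orange), numbered by replicate. The highest young ratio is 2.59 against a lowest old ratio of 4.25 for Fosl2/Fosl1, and 0.953 against 1.39 for Jund/Jun.

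Genes around these factors were grouped in lists, and edgeR called 0 genes in each. The counts that follow stand beside 11.2% of all genes that were higher and 11.5% that were lower in old at an unadjusted p under 0.05. Counts of DESeq2 calls stand beside the 2.23% of all genes that it called as higher and the 3.25% that it called as lower in old. Of 9 other AP-1 dimer partners, 4 were higher and 2 lower in old at an unadjusted p under 0.05, and DESeq2 called 2 as higher. Maf, a large Maf protein gene, had a log2 fold change of 1.28 ± 0.25 (SE, edgeR adjusted p = 0.0743). Of 4 other Egr family members and Egr co-repressors, 0 passed an unadjusted p under 0.05; Nab2, a co-repressor of Egr factors, had a log2 fold change of 0.75 and Wt1 of 0.88.

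Of 33 other immediate early genes, 3 were higher and 8 lower in old at an unadjusted p under 0.05, with a median log2 fold change of -0.51. DESeq2 called 2 as higher and 3 as lower, beside 2.23% and 3.25% of all genes. Young replicate 3 and old replicate 1 were the 2 highest libraries in 5 of the 33 (Ier2, Ier5, Klf2, Zfp36 and Arc), beside 6.52% of all genes. In the lists above it was so in 1 of 4 other Egr family members and co-repressors (Egr3) and in 0 of 9 AP-1 dimer partners. Nr4a1 and Nr4a3, orphan nuclear receptors with the largest fold changes of the list, did not share that order. Nr4a1 had 98.0, 91.7 and 25.8 CPM in young and 43.7, 21.2 and 9.31 CPM in old, so young replicate 3 was the lowest young library. Nr4a3 had 53.5, 50.4 and 12.7 CPM in young and 27.6, 9.45 and 4.53 CPM in old. Their log2 fold changes were -1.54 and -1.49 (edgeR adjusted p = 0.240 and 0.299), and they were not among the genes called by DESeq2.

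Upstream of the members, 0 of 14 genes of SRF, the ternary complex factors and MAP kinases were higher and 4 were lower at an unadjusted p under 0.05. Srf had the largest change, from 74.9 ± 10.9 in young to 37.9 ± 13.1 CPM in old (SD, n = 3 each), and its log2 fold change was -0.98 (edgeR adjusted p = 0.111), with all old libraries below all young libraries. Of 15 MAP kinase phosphatases and ERK inhibitors, 13 were lower in old and 3 of them at an unadjusted p under 0.05, with 1 higher. Dusp8 and Spry1, both called by DESeq2, had log2 fold changes of -1.58 and -1.09 (edgeR adjusted p = 0.114 and 0.0574).

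Downstream, 1 of 16 textbook AP-1 targets was higher and 5 were lower at an unadjusted p under 0.05, and DESeq2 called 0 as higher and 3 as lower. Lif, a cytokine gene, had the largest change among genes with a mean of at least 1 CPM, at -1.57 on the log2 scale (edgeR adjusted p = 0.157). Of 8 textbook Egr1 targets, 1 was higher and 3 lower at an unadjusted p under 0.05, and DESeq2 called 1 as higher and 2 as lower. The higher one was Vegfa, with a log2 fold change of 1.27 (edgeR adjusted p = 0.0762) and all old libraries above all young libraries. Ptgs2, the inducible cyclooxygenase gene, went from 56.7 ± 4.43 in young to 14.0 ± 5.86 CPM in old (SD, n = 3 each). Its log2 fold change was -2.01, and Fgf2 had -1.59 (edgeR adjusted p = 0.0574 and 0.0636).

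Genes of the integrated stress response, a program that adapts translation and amino acid supply, were listed alongside Atf3. All had a positive log2 fold change (10 of 10), with a median of 0.76, and 7 of the 10 were higher at an unadjusted p under 0.05. In Chac1, Asns and Cebpb, which did not pass it, the groups overlapped as they did in Atf3, and the difference between Atf3 and the list was not tested. Ddit4 had 17.8, 15.7 and 12.7 CPM in young and 67.1, 103 and 45.4 CPM in old, a log2 fold change of 2.22 (edgeR adjusted p = 0.0545). Gadd45a had a log2 fold change of 1.82 (edgeR adjusted p = 0.105). DESeq2 called 4 of the 10 as higher.

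**Figure D5:**
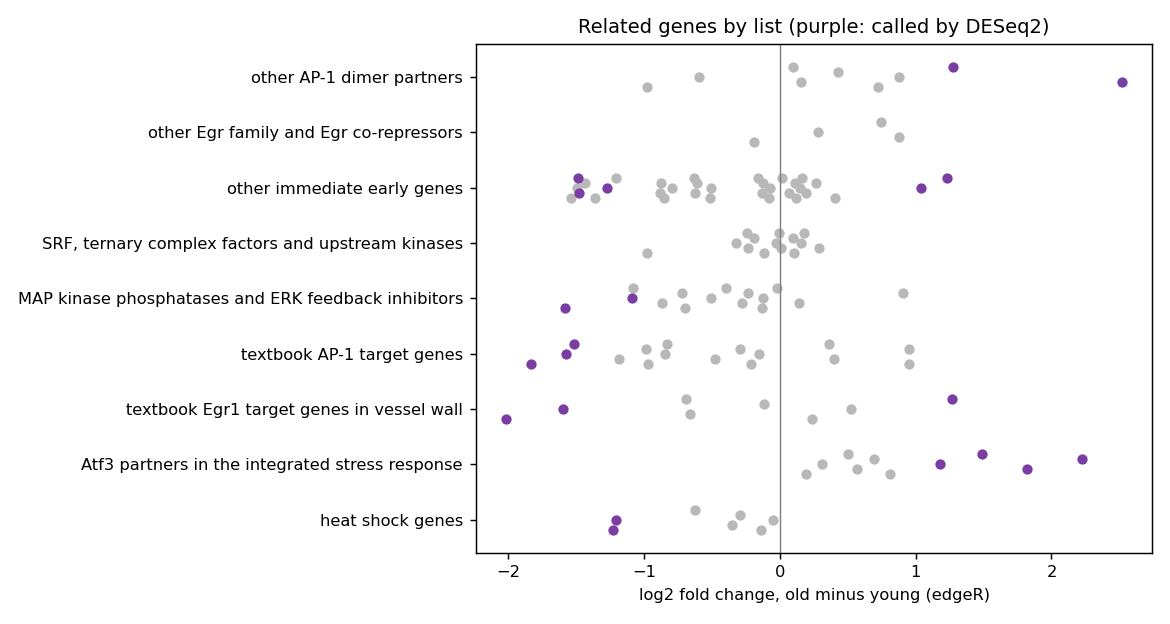
Log2 fold change (x axis, old minus young, edgeR) of every gene of 9 lists of related genes (rows), with a point per gene; purple points were called by DESeq2 and edgeR called 0. The 10 integrated stress response genes lie right of 0 and the 7 heat shock genes left of 0.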

How the data were processed

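Polyadenylated RNA of cultured VSM cells was sequenced as 1 stranded, paired-end library per culture (3 young, 3 old). According to the methods and the submitters' processing notes, the authors trimmed reads with Cutadapt 3.5 through Trim Galore 0.6.7, aligned them to Rnor 6.0 with STAR 2.7.10b and counted them with featureCounts (Subread 2.0.8). The deposited values are raw gene counts without normalization. Genes carry Ensembl identifiers although the methods name a RefSeq annotation, so the annotation that was counted on is uncertain. The sources used here do not give the counting options for strand, mates or multi-mapping. Between 68.7% and 71.1% of counts from 1 to 19 were even, as when the mates of a pair are counted singly. The total of counts in every library was also above the read totals that the paper gives per sample. Counts at all levels, low ones included, are therefore taken as less precise than they look.

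Groups were compared with edgeR 4.0.16 in R 4.3.3 (TMM, quasi-likelihood F test, Benjamini-Hochberg adjustment over 14475 genes, young as reference). Standard errors (SE) are the size of the log2 fold change over the root of F. DESeq2 1.42.0 and limma-voom (limma 3.58.1) were alternatives, tested like edgeR on simulated data. DESeq2 was run with its default independent filtering level of 0.1, which called 793 genes. A level of 0.05 called 805 and was added after both counts had been seen, with the count of the paper known; 0 members and the same 21 listed genes were called at both levels. Other alternatives were RLE factors, library size only, stricter filters, halved counts, a replicate block, no fold limit and leaving out libraries.

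Members and lists were chosen with earlier results of these data known. All members with a row were named, and of each list the 2 genes with the largest change at a mean of at least 1 CPM; the listed genes with young replicate 3 and old replicate 1 highest, Chac1, Asns and Cebpb, and the named skeletal muscle markers were chosen after their values were seen. Some genes that this rule names are not reported here. Log2 CPM used a prior count of 2. Libraries of a group had a Spearman's rho of 0.973 to 0.991 across genes, and no library repeated another. The paper gives 3 rats per group, and p-values measure the spread between these cultures only. Promoter windows are from RefSeq (GRCr8), not the build of the counts.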

Additional observations from a re-analysis of the deposited data

How the results depend on the processing

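Of the 9 members edgeR called 0. The count stayed 0 under each alternative except without old replicate 1, where it was 1 (Fosl1). Over single libraries left out it ranged from 0 to 1. The count of listed genes called was 0 with edgeR, 21 with DESeq2 at its default filtering and 21 at a filtering level of 0.05, a setting added after the data had been seen. It was 20 without old replicate 1 and 0 without any other library. Over all 14475 genes edgeR called 1 with all libraries, 732 without old replicate 1 and at most 5 without any other library. DESeq2 called 793 of all genes at its default filtering and 805 at a level of 0.05, so the counts for all genes moved as well. The cause of these differences was not tested.

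The log2 fold changes of Fosl1, Fosl2, Jun, Jund and Atf3 kept their sign under all alternatives. That of Fos was -0.16 with limma-voom, -0.13 with the replicate block and -0.36 without young replicate 3 and old replicate 1, and from -0.95 to 0.66 with single libraries left out. That of Egr2 was -0.14, -0.16 and -0.19 in the same order and from -0.65 to 0.75 with single libraries left out. Egr1 ranged from -1.56 to 0.77 with single libraries left out, and Fosb from -0.080 to 0.22 with 1 or both libraries left out.

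Deviations of equally numbered libraries correlated at 0.0316, 0.263 and 0.264, and young replicate 1 correlated best with old replicate 2 (0.294), so the numbers were not taken to pair the cultures. With the replicate block 0 members and 0 listed genes were called, and 1 of all 14475 genes. With 3 libraries a group, the standard errors of Egr1 (0.90), Egr2 (0.76) and Fos (0.70) limit what could be detected.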

Other observations

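The heat shock genes, shown above only in the plot of related lists, had 7 of 7 log2 fold changes below 0 in old VSM cells, with a median of -0.35, and 3 of the 7 were lower at an unadjusted p under 0.05, beside 11.5% of all genes. Hspa1a, an inducible HSP70 gene, had 12.9, 17.5 and 17.9 CPM in young and 8.99, 4.89 and 6.70 CPM in old, a log2 fold change of -1.23 (edgeR adjusted p = 0.0805). Hspb1, which encodes the small heat shock protein HSP27, had 230, 271 and 301 CPM in young and 138, 110 and 99.5 CPM in old, a log2 fold change of -1.21 (edgeR adjusted p = 0.0531). For these genes and 1 other of the 7 every old library lay below every young library, beside 14.7% of all genes. For the other 4 the groups overlapped. In 0 of the 7 were young replicate 3 and old replicate 1 the 2 highest libraries, beside 6.52% of all genes, and with 7 genes this count is too small to set them apart.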
